A study of Bos taurus with 8 samples.

Results

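Genes of the cell cycle and of DNA replication were examined in bovine granulosa cells that were cultured with or without non-esterified fatty acids (NEFA). The set was listed by name and held 48 genes. It took in 8 cyclins and kinases of the G1 phase, 5 genes of the inhibitors and the RB-E2F switch, 13 replication genes and 22 mitosis genes. A gene counted as measured where a probe set of the array carried its symbol and no other, and the probe set that was brightest over all arrays stood for the gene. This gave 45 of the 48 genes, out of 18010 genes measured on the array. CCNB2 and NUSAP1 had only a probe set that also carried a second symbol, and TOP2A was not matched to a probe set, so these 3 mitosis genes are not analysed here.

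Primary granulosa cells, the somatic cells around the oocyte, were kept without serum in alpha-MEM with follicle-stimulating hormone (FSH), insulin-like growth factor 1 and androstenedione, and this was shared by all cultures. In the NEFA group (4 arrays) the medium was renewed on day 2 and on day 4 with medium holding the fatty acid mix. Its make-up and dose are not stated in the labels. In the BSA group (4 arrays) it was renewed on the same days with medium holding bovine serum albumin, and all cells were collected on day 6. Whether replicates of a group came from different animals, pools or culture wells is not stated in the labels, and the p-values therefore reflect the spread between samples alone, which may be technical.

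Cells enter the division cycle when D-type cyclins with CDK4 or CDK6, and then E-type cyclins with CDK2, phosphorylate the retinoblastoma protein RB1 and release E2F transcription factors. E2F drives the genes that license replication origins, unwind DNA and supply nucleotides, while a later wave that depends on FOXM1 supplies the cyclins, kinases and motor proteins of mitosis. In the growing follicle, FSH and insulin-like growth factor 1 are known to drive the division of granulosa cells, and CCND2 is the D-type cyclin best known for its role there.

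Levels are log2 expression values from RMA, a method that makes the distributions of the arrays alike, and a level cannot be compared between probe sets of different genes. Changes are NEFA minus BSA on the log2 scale with the standard error (SE) or the 95% interval of limma, and p-values were adjusted (Benjamini-Hochberg) across the whole table of 24415 probe sets, with 0.05 as the threshold. All 12 granulosa markers examined, among them FSHR, FOXL2, CYP19A1 and HSD3B1, had a signal at or above percentile 58.4 of the probe sets. The probe sets of 10 leukocyte markers reached at most percentile 48.7, those of 7 endothelial markers 53.1, of 8 oocyte markers 31.5, of 6 theca markers 86.3 and of 9 fibroblast and smooth muscle markers 99.9. The signal of a probe set also depends on its probes, so these percentiles do not rank the genes or show that a cell type was absent. None of the 12 granulosa markers passed. An unadjusted p under 0.05 was found for 6 of them (50%), beside 16.8% of all genes, with 2 higher and 4 lower in NEFA cells. For 3 of the 12, each NEFA array was below each BSA array, beside 7.2% of all genes. Changes ran from -0.21 for NR5A1 to 0.505 for CYP19A1. None of the theca markers passed, but values were higher in NEFA cells for all 6 (median change 0.22), and 4 of them had an unadjusted p under 0.05, beside 7.9% of all genes. These 4 were INSL3 (percentile 86.3), PTCH1 (67.2), GLI1 (39.3) and CYP17A1 (29.1), so the last 2 were dim. The mean deviation of the 6 theca markers from each gene's own mean was 0.02 to 0.21 on NEFA arrays and -0.16 to -0.06 on BSA arrays. None of the 8 oocyte markers passed either, and all had higher values in NEFA cells (median change 0.15). All 8 were dim, at percentiles 5.4 to 31.5, so their signal need not come from oocyte transcripts. Past the threshold, 1 of 9 fibroblast and smooth muscle markers was higher and 2 were lower in NEFA cells (33.3% together). Of the 7 endothelial markers, 1 was lower (14.3%). Of all genes, 2.35% passed. An unadjusted p under 0.05 was found for 7 of the 9 fibroblast and smooth muscle markers, beside 16.8% of all genes. The part of these markers in the results below was not tested. No array was a copy of another, and Pearson's r between arrays was 0.9914 to 0.9948 over probe sets, which do not vary independently.

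Differences of the cell cycle genes between NEFA and BSA cultures were small. CCND3, a D-type cyclin of G1, was the only member past the threshold, and it fell in NEFA cells. That is 1 of 45 members, or 2.22%, beside 2.35% of all genes past the threshold, so the share was near the background. At an unadjusted p under 0.05, 3 of 45 members (6.67%) stood apart, beside 16.8% of all genes. Of these, 2 were higher, beside 7.9% of all genes, and 1 was lower, beside 8.92%. The NEFA and BSA arrays did not overlap for 4 of 45 members (8.89%), beside 12.4% of all genes. NEFA was above BSA for 3 of them, beside 5.19% of all genes, and below it for 1, beside 7.2%. Values were higher in NEFA cells for 32 members and lower for 13, with a median change of 0.07. Over all genes 50.9% had higher values, with a median of 0.005. Among the 11518 genes in the level range of the members, 3.33% passed and 20.4% had an unadjusted p under 0.05. The arrays of the 2 groups did not overlap for 16.7% of these genes. Higher values in NEFA cells were found for 45.5% of them, with a median change of -0.0125. The members' count moved to 26 higher and 19 lower when each array was centred on its own median, and also when NEFA 3 or BSA 4 was left out, 2 arrays that stood apart for these genes as described further on. Without both of these arrays it was 22 higher and 23 lower. RNA was taken from whole cultures, so a different share of dividing cells and a different amount of RNA per cell cannot be told apart.

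**Figure D1:**
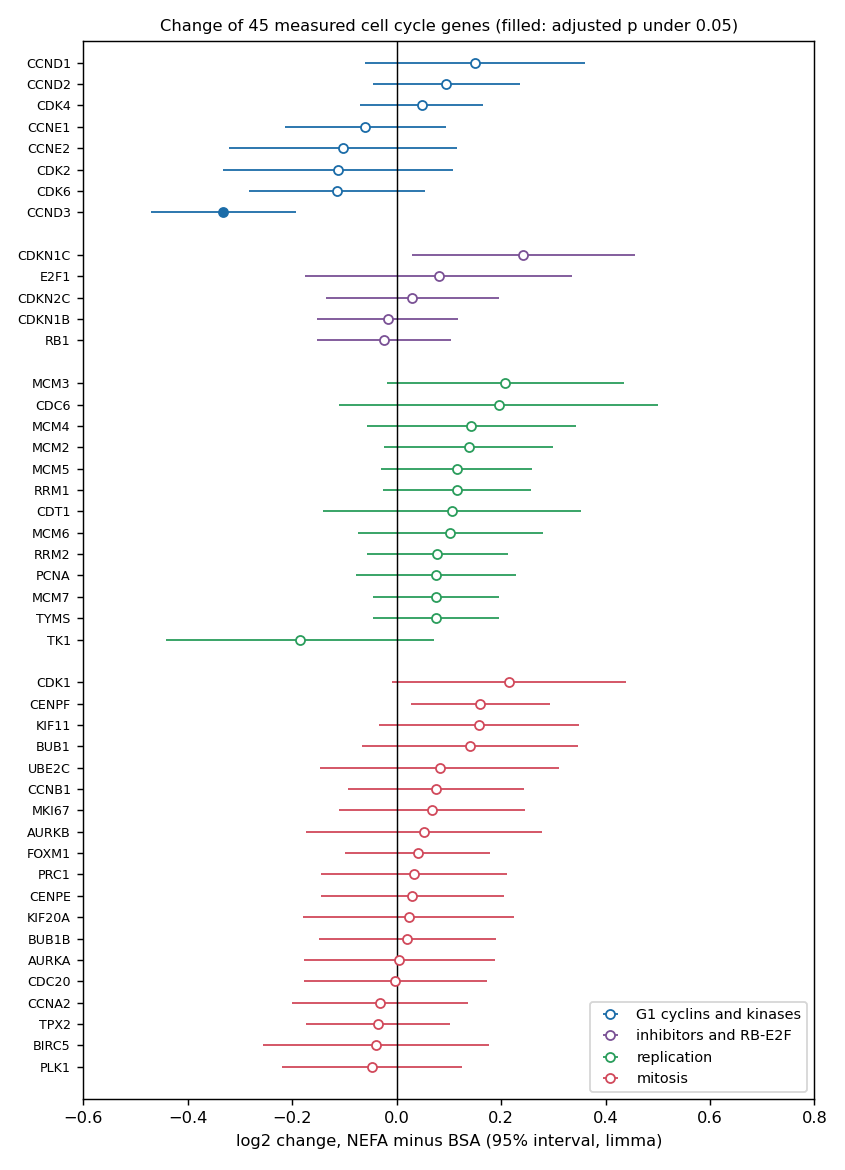
Change of each of the 45 measured genes (log2, NEFA minus BSA) with its 95% interval from limma, sorted within the 4 role groups. The filled point, CCND3, is the member past the threshold, and 44 of the 45 intervals lie within -0.5 and 0.5.

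The intervals give a range for each difference, but they rest on the spread between samples, which may be technical. Of 45 intervals, 44 (97.8%) lay within -0.5 and 0.5 on the log2 scale. This was so for 87.4% of all genes and for 91.4% of genes in the level range of the members. All 45 lay within -1 and 1, as did those of 17895 of all 18010 genes. The exception to the narrower range was CDC6, a loader of the replicative helicase, whose interval ran from -0.11 to 0.501. The median half-width of an interval was 0.17.

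Among the G1 genes, CCND3 fell, while the other D-type cyclins, CCND1 and CCND2, had higher values that did not pass. CCND3 (probe set 12806571) had levels of 6.34, 6.44, 6.44 and 6.31 on the NEFA arrays, against 6.76, 6.77, 6.73 and 6.60 on the BSA arrays. Each NEFA array was thus below each BSA array. The change was -0.33 (SE 0.061, 95% interval -0.47 to -0.19; limma, Benjamini-Hochberg adjusted p = 0.034), which is a level 0.794 times that of BSA cells. The call ended when any array except BSA 4 was left out, with an adjusted p of up to 0.098 (limma, without BSA 3), while the change stayed between -0.37 and -0.31. Calls over all genes also fell with 1 array left out, from 423 to between 164 and 260.

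CCND2 had levels of 10.33, 10.46, 10.43 and 10.29 on NEFA arrays and 10.36, 10.31, 10.26 and 10.20 on BSA arrays. The groups overlapped, and the change of 0.10 did not pass (95% interval -0.05 to 0.24; limma, adjusted p = 0.50). CCND1 stood at 5.80, 5.56, 5.73 and 5.90 on NEFA arrays and at 5.41, 5.66, 5.60 and 5.72 on BSA arrays. These groups overlapped too, with a change of 0.15 (95% interval -0.06 to 0.36; limma, adjusted p = 0.47).

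Of the kinases that pair with D-type cyclins, CDK6 had levels of 7.12, 7.11, 7.24 and 7.13 on NEFA arrays and 7.30, 7.39, 7.08 and 7.29 on BSA arrays. BSA 3 was the lowest of all 8 arrays, so the groups overlapped, and the change of -0.12 did not pass (limma, adjusted p = 0.50). The change of CDK4 was 0.05 and did not pass either. The 3 genes of the following step, CCNE1, CCNE2 and their kinase partner CDK2, all had lower values in NEFA cells, by -0.06, -0.10 and -0.11, and none of them passed. Over the 8 G1 genes the median change was -0.08, with 3 values higher and 5 lower, or -0.12 with array centring.

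**Figure D2:**
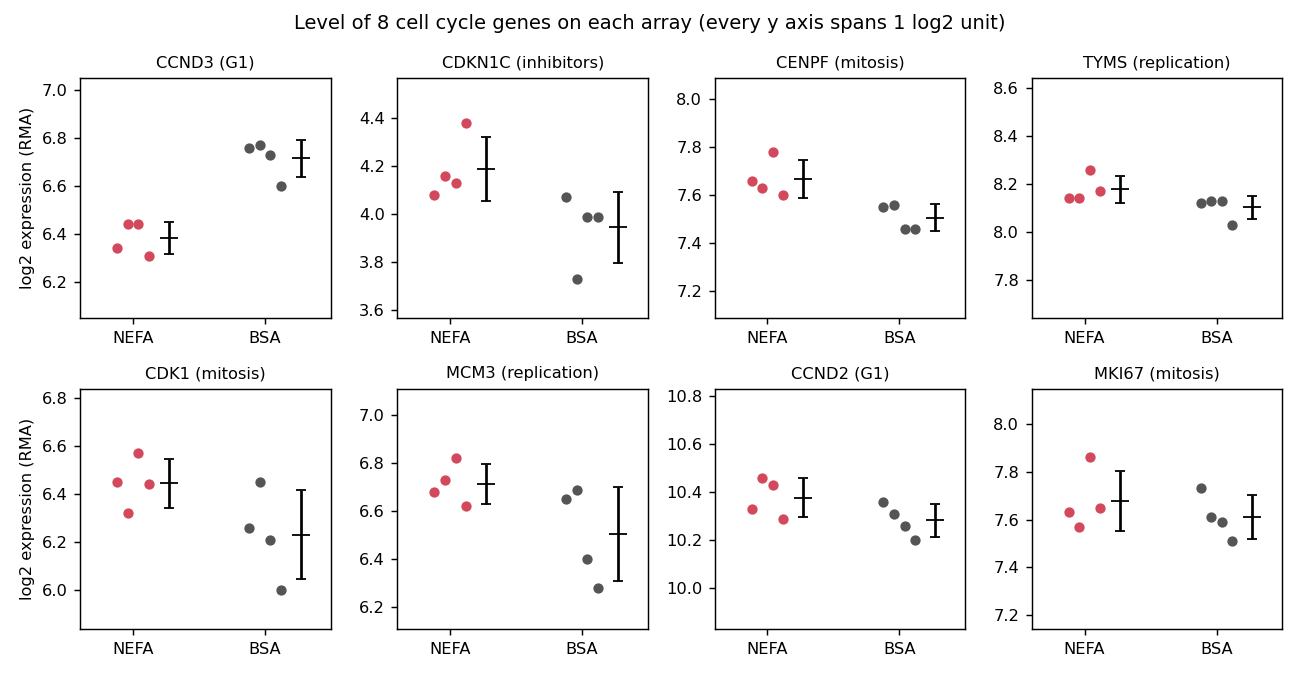
Log2 level of 8 cell cycle genes on each of the 4 NEFA arrays and the 4 BSA arrays, with mean and SD beside the points. The groups are apart for CCND3, CENPF and, by only 0.01, CDKN1C and TYMS, and they overlap for CDK1, MCM3, CCND2 and MKI67.

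The inhibitors showed no member past the threshold. CDKN1C, which encodes the inhibitor p57, had levels of 4.08, 4.16, 4.13 and 4.38 on NEFA arrays and 4.07, 3.73, 3.99 and 3.99 on BSA arrays. The groups were apart by 0.01 only, and the change of 0.24 did not pass (95% interval 0.03 to 0.46; limma, adjusted p = 0.25). CDKN1B, which encodes the inhibitor p27, stood at 6.89, 6.85, 7.0 and 6.86 on NEFA arrays and at 6.95, 7.0, 6.86 and 6.86 on BSA arrays. Both groups spanned nearly the same range, and the change was -0.02 (95% interval -0.15 to 0.12). For CDKN2C, an inhibitor of CDK4 and CDK6, the change was 0.03.

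RB1, the gatekeeper that these kinases inactivate, was 8.76, 8.80, 8.77 and 8.75 on NEFA arrays and 8.81, 8.67, 8.85 and 8.85 on BSA arrays. The NEFA values lay within the BSA range, and the change was -0.03 (95% interval -0.15 to 0.10; limma, adjusted p = 0.87). E2F1, the transcription factor that RB1 holds back, was 5.66, 5.73, 5.65 and 5.86 on NEFA arrays and 5.84, 5.83, 5.53 and 5.38 on BSA arrays. The BSA arrays were split, with BSA 3 and BSA 4 lower than the other two, and the change of 0.08 did not pass (limma, adjusted p = 0.78). The 5 genes of this group had a median change of 0.03, or -0.005 with array centring.

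The replication genes had mostly higher values in NEFA cells, but none of 13 passed the limma threshold and none had an unadjusted p under 0.05. Values were higher for 12 of 13 with a median change of 0.10. With the array medians centred it was 0.07, and without BSA 4 it was 0.08. The 6 subunits of the MCM helicase, which unwinds DNA at the fork, were all on the higher side, by 0.07 to 0.21. MCM3 had levels of 6.68, 6.73, 6.82 and 6.62 on NEFA arrays and 6.65, 6.69, 6.40 and 6.28 on BSA arrays. Only BSA 3 and BSA 4 were below the NEFA range, while BSA 1 and BSA 2 lay inside it, and the change was 0.21 (95% interval -0.02 to 0.43; limma, adjusted p = 0.36). MCM2 had 6.37, 6.59, 6.55 and 6.46 on NEFA arrays and 6.37, 6.39, 6.44 and 6.22 on BSA arrays. Its lowest NEFA value equalled the value of BSA 1, and the change of 0.14 did not pass (limma, adjusted p = 0.39). MCM4 had a second probe set, with a change of 0.10 beside 0.14 for the brighter probe set, and neither passed.

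PCNA, the sliding clamp of the replicative polymerases, was 8.86, 8.79, 8.98 and 8.81 on NEFA arrays and 8.79, 8.91, 8.70 and 8.74 on BSA arrays. The groups overlapped, with a change of 0.07 (95% interval -0.08 to 0.23; limma, adjusted p = 0.64). The licensing factors CDC6 and CDT1, which load the helicase onto origins, had changes of 0.20 and 0.10, and neither passed.

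Genes that supply nucleotides had values in both directions, and none passed. RRM1, the large subunit of ribonucleotide reductase, had 8.42, 8.47, 8.50 and 8.41 on NEFA arrays and 8.44, 8.40, 8.26 and 8.24 on BSA arrays, a change of 0.12 (limma, adjusted p = 0.41). BSA 1 lay inside the NEFA range, BSA 2 just below it, and BSA 3 and BSA 4 were the lowest, as for MCM3. TYMS, the thymidylate synthase, was 8.14, 8.14, 8.26 and 8.17 on NEFA arrays and 8.12, 8.13, 8.13 and 8.03 on BSA arrays. Its groups were apart by 0.01, and the change of 0.07 did not pass (limma, adjusted p = 0.54). TK1, the thymidine kinase of the salvage route, was the member of this group with a lower value, at a change of -0.18 (95% interval -0.44 to 0.07; limma, adjusted p = 0.47).

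Of 19 measured mitosis genes none passed the limma threshold, and the median change was 0.03. It was -0.002 with array centring, -0.004 without NEFA 3 and -0.007 without BSA 4. Values were higher in NEFA cells for 14 genes and lower for 5, and changes ran from -0.05 for the polo-like kinase PLK1 to 0.21 for CDK1. CDK1, the kinase that starts mitosis, had levels of 6.45, 6.32, 6.57 and 6.44 on NEFA arrays and 6.26, 6.45, 6.21 and 6.00 on BSA arrays. BSA 2 lay inside the NEFA range, and the change of 0.21 did not pass (95% interval -0.01 to 0.44; limma, adjusted p = 0.33). Its partner CCNB1 was 6.14, 6.19, 6.29 and 6.23 on NEFA arrays and 6.08, 6.29, 6.19 and 5.99 on BSA arrays, with a change of 0.07 (limma, adjusted p = 0.67). For CCNA2, the A-type cyclin that acts in S phase and at the entry to mitosis, the change was -0.03.

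MKI67, the gene of the proliferation marker Ki-67, had levels of 7.63, 7.57, 7.86 and 7.65 on NEFA arrays, against 7.73, 7.61, 7.59 and 7.51 on BSA arrays. NEFA 3 was the highest and BSA 4 the lowest, with the other arrays mixed between them. The change was 0.07 (95% interval -0.11 to 0.25; limma, adjusted p = 0.73), or a NEFA level 0.927 to 1.19 times that of BSA cells over the interval. For FOXM1, the transcription factor of the mitotic wave, the change was 0.04.

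CENPF, a kinetochore protein, had the smallest p of the mitosis genes. Its levels were 7.66, 7.63, 7.78 and 7.60 on NEFA arrays and 7.55, 7.56, 7.46 and 7.46 on BSA arrays. Each NEFA array was above each BSA array, but the change of 0.16 did not pass (95% interval 0.03 to 0.29; limma, adjusted p = 0.23). KIF11, a motor that pushes the spindle poles apart, was 7.33, 7.40, 7.59 and 7.29 on NEFA arrays and 7.26, 7.37, 7.25 and 7.10 on BSA arrays. BSA 2 lay inside the NEFA range, and the change was 0.16 (limma, adjusted p = 0.41). The 5 mitotic and checkpoint kinases PLK1, AURKA, AURKB, BUB1 and BUB1B had changes of -0.05 to 0.14. KIF20A, CENPE, TPX2 and PRC1, which build and move the spindle, had changes of -0.04 to 0.03. CDC20 and UBE2C, which work with the anaphase-promoting complex, and BIRC5 of the chromosomal passenger complex had changes of -0.04 to 0.08. None of these passed.

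The replication and mitosis genes varied together between arrays of the same group. Each gene's level was set against its own mean over the 8 arrays, and these deviations were averaged over a role group. For the mitosis genes the mean deviation was -0.03, -0.01, 0.16 and -0.03 on NEFA 1 to 4 and 0.04, 0.06, -0.04 and -0.16 on BSA 1 to 4. NEFA 3 was thus high, BSA 4 was low, and the other 3 NEFA arrays lay between BSA 2 and BSA 3. The mean deviation averaged 0.02 ± 0.093 in NEFA and -0.02 ± 0.10 in BSA (SD, n = 4 each), so the spread within a group exceeded the difference between the groups. All 19 mitosis genes were above their own mean on NEFA 3, and 0 of 19 were above it on BSA 4. NEFA 3 held the highest level, ties included, of 16 of 19 mitosis genes, beside 12.5% of all genes, and BSA 4 the lowest of 15 of 19, beside 14.9% of all genes.

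**Figure D3:**
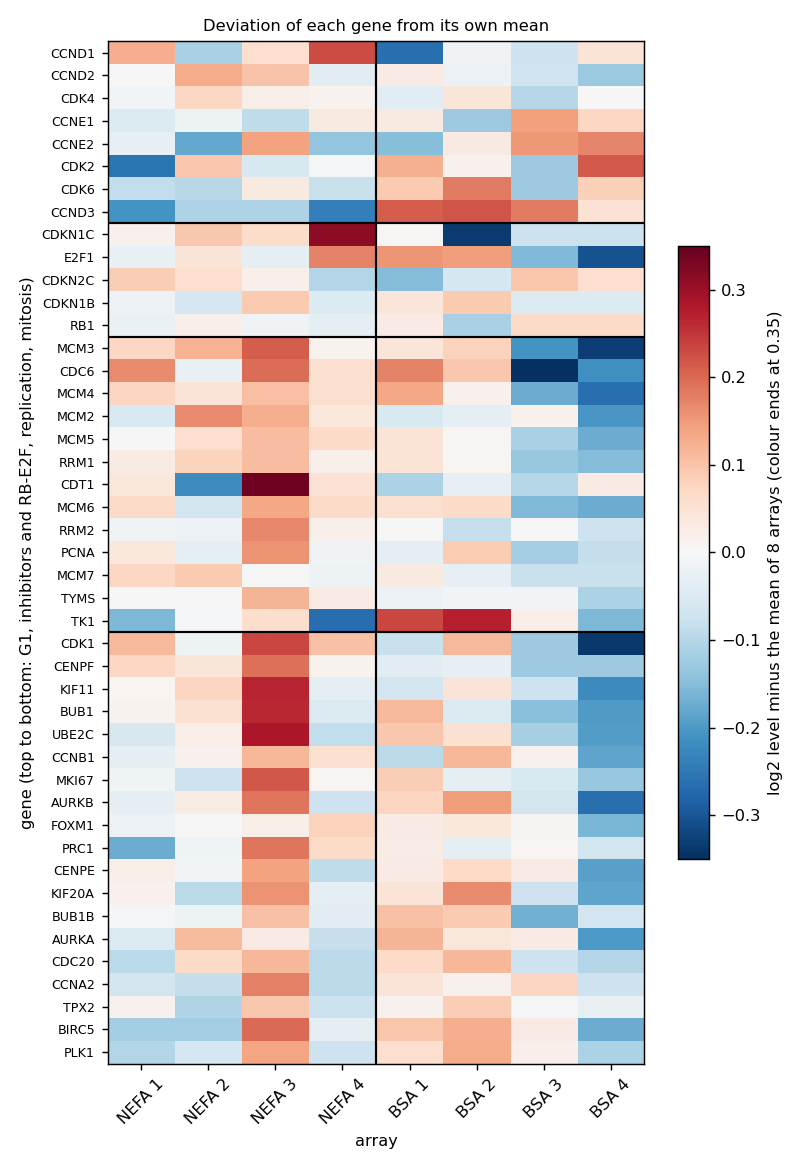
Deviation of each measured member from its own mean over the 8 arrays (log2, colour), with genes in rows by role group and arrays in columns. NEFA 3 is high and BSA 4 low for most replication and mitosis genes, and no such columns appear among the G1 genes and the inhibitors.

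The replication genes showed the same pair of arrays at the ends. Their mean deviation was 0.03, 0.01, 0.14 and 0.01 on NEFA 1 to 4 and 0.04, 0.03, -0.12 and -0.15 on BSA 1 to 4. Here BSA 3 was low along with BSA 4, whereas BSA 1 and BSA 2 were each above NEFA 1, NEFA 2 and NEFA 4. All 13 were above their own mean on NEFA 3, and 1 of 13 on BSA 4. The G1 cyclins and kinases had mean deviations of -0.06, -0.03, 0.01 and -0.03 on the NEFA arrays and 0.01, 0.04, -0.002 and 0.06 on the BSA arrays, so that BSA 4, the lowest array of the replication and mitosis genes, was their highest. Over all 18010 genes the mean deviation of an array ran from -0.01 to 0.01.

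**Figure D4:**
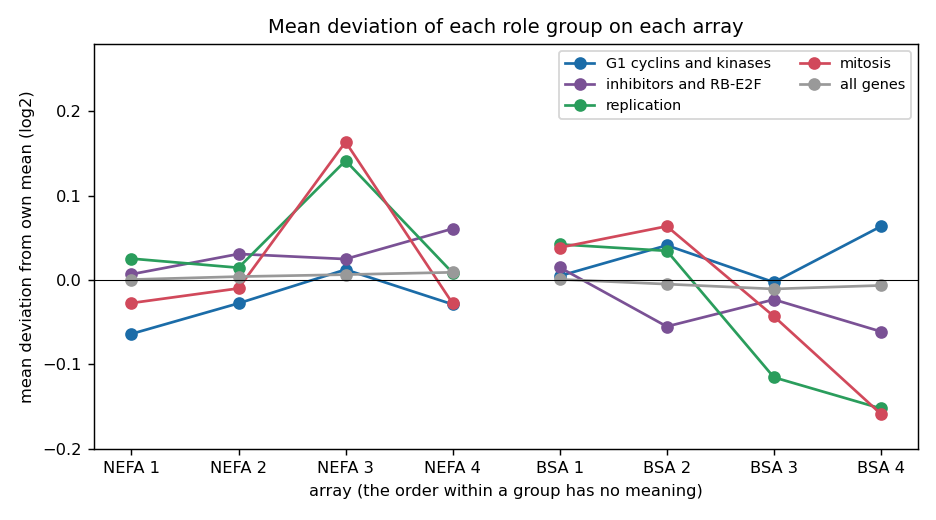
Mean deviation (log2) of the genes of each role group, and of all genes, from their own mean on each array, with NEFA arrays on the left and BSA arrays on the right. Replication and mitosis genes share a high value on NEFA 3, at 0.14 and 0.16, and a low value on BSA 4, at -0.15 and -0.16.

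Co-variation was then taken gene by gene, as Pearson's r between the levels of each pair of genes over the 8 arrays after the group means had been taken out. It is a description, since the arrays are shared by all pairs. For the 171 pairs of mitosis genes r was above 0 in all pairs, from 0.14 to 0.97, with a median of 0.73. For the 78 pairs of replication genes the median was 0.56, with 92.3% of pairs above 0. Between replication and mitosis genes it was 0.64 over 247 pairs. Over all pairs of the 18010 genes the median was 0.001, and over all pairs of genes in the level range of the members it was 0.011.

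**Figure D5:**
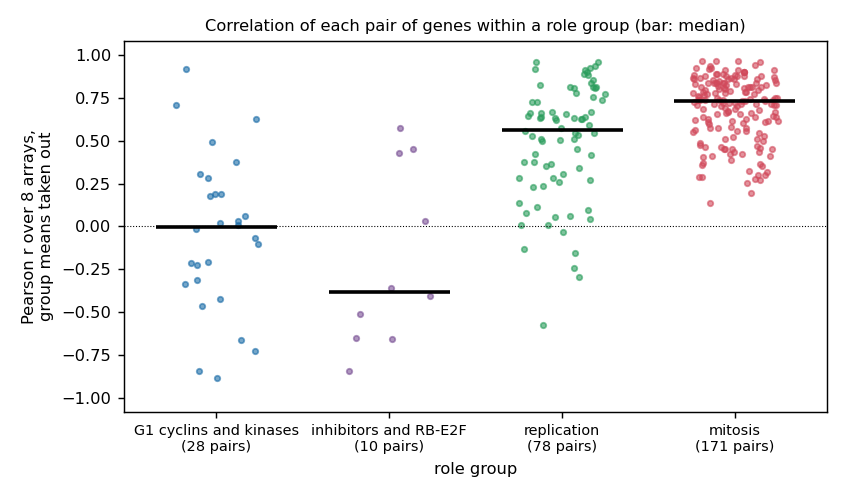
Pearson's r over the 8 arrays, with group means taken out, for each pair of genes within a role group, with the median as a bar. The medians are -0.005 for the G1 genes, -0.38 for the inhibitors and RB-E2F, 0.56 for replication and 0.73 for mitosis.

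The G1 genes did not share this co-variation as a group, with a median of -0.005 over 28 pairs and as many pairs above 0 as below. With the mitosis genes they had a median r of 0.11. For the inhibitors and RB-E2F genes the median r with the mitosis genes was -0.16. Single members of both groups differed, however. With the mean of the mitosis genes, r was 0.82 for CCND3, 0.70 for CCND2 and -0.63 for CCNE1 among the G1 genes. Among the inhibitors and RB-E2F genes, r was 0.91 for CDKN1B and -0.50 for RB1. Within the mitosis group, PLK1 and AURKB followed the mean of the others most closely, at 0.98 and 0.96, and PRC1 and FOXM1 least, at 0.57 and 0.59.

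A large part of this pattern rested on 2 arrays, NEFA 3 and BSA 4. They were chosen after seeing the data, as the ends for these same genes, so leaving them out would tend to lower r. No other pair of arrays was left out for comparison. Without NEFA 3 the median r of the mitosis pairs was 0.63 and without BSA 4 it was 0.65, while without both it was 0.26, with 67.8% of pairs above 0. For the replication pairs it was 0.25 without both. Changes of single genes moved with them. Without NEFA 3 the change was 0.0067 for MKI67, 0.035 for PCNA, 0.05 for TYMS and 0.095 for KIF11. Without BSA 4 it was 0.14 for CDK1, 0.13 for MCM3, 0.03 for CCNB1 and 0.03 for MKI67. Outside these 2 groups of genes, the change of CCND1 was 0.09 without BSA 1 and that of CDK6 was -0.07 without BSA 2.

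The marker lists were set beside the same 2 arrays. The mean deviation of the granulosa markers was 0.07 on NEFA 3 and -0.07 on BSA 4, that of the theca markers 0.06 and -0.10, and that of the oocyte markers 0.11 and -0.05. The means of these 3 lists ran in the direction of the replication and mitosis genes on these 2 arrays. The theca and oocyte means were positive on every NEFA array and negative on every BSA array. Any NEFA array beside any BSA array would therefore show this direction for them. NEFA 3 was the highest of the 8 arrays for the oocyte markers, all of them dim, and BSA 3 the lowest. The theca markers were highest on NEFA 2 (0.21) and lowest on BSA 1 (-0.16). The granulosa markers were highest on NEFA 2 (0.070) and lowest on NEFA 4 (-0.10). Their median deviation was only 0.02 on NEFA 3 and -0.04 on BSA 4. Of the 12, 7 were above their own mean on NEFA 3 and 5 on BSA 4, so they did not move as a list. CYP19A1 weighed on their mean, with its highest level on NEFA 3 (8.33) and its lowest on BSA 4 (7.29). For the endothelial markers the mean deviation was 0.07 on NEFA 3 and -0.006 on BSA 4. For the fibroblast and smooth muscle markers it was 0.001 on NEFA 3 and -0.07 on BSA 4, the lowest of the 8 arrays. For the leukocyte markers it was -0.06 on NEFA 3 and -0.02 on BSA 4. The part of these cells in the pattern was not tested.

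A wider set of 116 cell cycle genes that shares none with the members gave 108 measured genes. Of these, 1 rose in NEFA cells, none fell in limma and 107 did not pass, beside 0.999% of all genes higher and 1.35% lower. Before adjustment, 8 of the 108 with p under 0.05 had higher levels in NEFA cells and 0 had lower ones, beside 7.9% and 8.92% of all genes. The gene that rose was HMMR, a hyaluronan receptor that also binds microtubules of the spindle. Its levels were 7.28, 7.19, 7.28 and 7.24 on NEFA arrays and 6.96, 6.97, 6.76 and 6.92 on BSA arrays. All NEFA arrays were above all BSA arrays, and the change was 0.34 (SE 0.062; limma, adjusted p = 0.030). The call ended without any one of the 8 arrays, with an adjusted p of up to 0.092 (limma, without NEFA 3), while the change stayed between 0.30 and 0.37.

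Of 25 measured further G1 regulators none passed, and the smallest p was that of CDKN1A, the p53-induced inhibitor p21. It stood at 9.23, 9.41, 9.34 and 9.40 on NEFA arrays and at 9.18, 9.16, 9.05 and 8.96 on BSA arrays. The groups did not overlap, but the change of 0.26 did not pass (95% interval 0.10 to 0.42; limma, adjusted p = 0.11). Of 36 further replication genes none passed, and the smallest p was that of ORC3, a subunit of the origin recognition complex, at a change of 0.18 (limma, adjusted p = 0.22). The median changes were 0.03 for the G1 regulators, 0.05 for the replication genes and 0.07 for the 47 mitosis genes of this wider set.

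The wider set showed the ends of the pattern over arrays as well, but NEFA 3 did not stand apart for its replication genes. NEFA 3 held the highest level of 21 of the 47 mitosis genes (44.7%), beside 12.5% of all genes. BSA 4 held the lowest of 28 (59.6%), beside 14.9% of all genes. BSA 4 was also the lowest array for 20 of the 36 replication genes (55.6%). NEFA 3 and BSA 2 were each the highest for 9 of these, with mean deviations of 0.06 and 0.05. The median r of pairs was 0.41 for these mitosis genes, 0.33 for these replication genes and 0.06 for the further G1 regulators. Without BSA 4 these medians were 0.28, 0.16 and -0.01, and that of the G1 regulators reached 0.14 without NEFA 4.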

How the data were processed

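The deposited table holds log2 values that the authors made with RMA, per the submitters' processing notes; the software and its version are not stated in those notes. It has 24415 probe sets on 8 arrays, with array medians of 4.78 to 4.86. RMA makes array distributions alike, so a shift common to all transcripts is lost, and RMA compresses the folds of dim probe sets. Precision is limited by the number of arrays.

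Probe sets were named by the platform annotation (18457 with 1 symbol, 688 with several, 5270 with none), and 17996 symbols were brought up to date by gene ID with RefSeq's ARS-UCD2.0 gene table. The brightest probe set stood for a gene. No coordinates or sequences are given.

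NEFA and BSA were compared with limma 3.58.1 in R 4.3.3 (lmFit and eBayes, default settings) on all probe sets, with Benjamini-Hochberg adjustment and a threshold of 0.05. The test was tried on simulated data with independent noise for each probe set. Genes that vary together, as seen here, were not simulated, so the trial does not cover them. Arrays with the same replicate number did not deviate together (r from -0.05 to 0.06 across genes), so no block was used. The members, role groups and lists were chosen with earlier results of these data known. Genes given array by array are the 3 of smallest p in each role group, 10 chosen in any case (MKI67, PCNA, CDK1, CCNB1, CCND1, CCND2, CDKN1B, CDKN1C, E2F1 and RB1), and members that passed or whose groups did not overlap. Of the wider lists, members past the threshold or else the smallest p are named. Alternatives were the replicate block, quantile normalization, array centring, leaving out the dimmest 33.3% of probe sets, trend and robust eBayes, array weights, no moderation, averaged probe sets per gene and leaving out each array. A promoter motif search that was planned was not run.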

Additional observations from a re-analysis of the deposited data

Results flagged for a closer look

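In a group of 4 arrays, an array was marked where its gap to the nearest other array, as a share of the group's range, passed Dixon's 95% critical value, which chance gives in about 1 of 20 groups. Over the named genes and the means of the role groups, 46 such groups were examined and 5 were marked. NEFA 3 was far above the other NEFA arrays for the mean deviation of the mitosis genes (gap over range 0.907), of the replication genes (0.873) and of all 45 members (0.897). These 3 means share genes and are not separate observations. CDK6 was also high on NEFA 3, at 0.846, and TYMS was low on BSA 4, at 0.900.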

How the results depend on the processing

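The number of members past the threshold was 1 in the reported setting and in all settings other than the block and those that left out arrays. It was 0 with the replicate number as a block, where CCND3 had an adjusted p of 0.11 (limma), and from 0 to 1 with each array left out in turn. Leaving out NEFA 3 and BSA 4 together, a choice made after seeing the data, also gave 0. Of the 108 other cell cycle genes, 1 passed in the reported setting, 0 with the replicate block, 5 with trend and robust eBayes (HMMR, CDKN1A, ZWINT, CCNG1 and SMC2), 2 without moderation (HMMR and NCAPG), and 0 with any array left out or with NEFA 3 and BSA 4 left out. CCNG1, SMC2, ZWINT and NCAPG are named after their values were seen. Over all genes the replicate block gave 77 calls, beside 423 without it, and leaving out 1 array gave 164 to 260.

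The median change of the G1 genes went to -0.12 with array centring, from -0.091 to -0.046 with each array left out and to -0.043 without NEFA 3 and BSA 4. That of the inhibitors and RB-E2F was -0.005 with array centring and -0.0067 to 0.042 with each array left out. With each array left out the replication median ran from 0.08 to 0.14 and the mitosis median from -0.007 to 0.06, and without NEFA 3 and BSA 4 they were 0.06 and -0.05. Array centring moved the median change of all genes to -0.03. Among named genes without a call, CDKN1B turned to 0.0019 with a further quantile normalization and ran from -0.07 to 0.01 with arrays left out, E2F1 turned to -0.0083 without BSA 4, and MKI67 turned to -0.027 without NEFA 3 and BSA 4. The cause of these moves was not tested. With 4 arrays in each group, precision was limited by the number of arrays.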

Other observations

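CCNB2 and NUSAP1 were left out above because their probe sets carry a second symbol. Neither probe set was highest on NEFA 3 or lowest on BSA 4, and no r was computed for them. The probe set of CCNB2 and LOC785561 had levels of 5.55, 5.52, 5.54 and 5.67 on NEFA arrays and 5.70, 5.66, 5.06 and 5.40 on BSA arrays. BSA 3 was the lowest and BSA 4 the next lowest. The probe set of NUSAP1 and LOC100299874 had 5.88, 5.83, 5.67 and 5.92 on NEFA arrays and 5.77, 6.25, 6.04 and 5.81 on BSA arrays, with NEFA 3 the lowest. Neither passed in limma, with changes of 0.11 and -0.14.

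CCND3 fell in NEFA cells but co-varied with the mitosis mean within groups (r = 0.82 over 8 arrays, group means taken out), and its level was the lowest of the BSA group on BSA 4. CDKN1B, which encodes an inhibitor of the cycle, followed that mean at 0.91.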
